A study of Mus musculus with 9 samples.

Results

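The MCM helicase and replication licensing genes are 10 genes taken by name: Mcm2, Mcm3, Mcm4, Mcm5, Mcm6, Mcm7, Mcm10, Cdc6, Pcna and Gmnn. They are 10 of the 15592 genes listed in all 3 deposited tables. All 10 were found in each table, and all 10 passed the filter on low values (a mean normalised read count of at least 10) in each of the 3 comparisons.

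RNA was sequenced from the medial layer of femoral arteries of C57BL/6 mice, in 3 groups of 3 libraries each. Sham arteries came from sham-operated mice. Injured arteries were taken 14 days after wire injury, and inhibitor-treated arteries 14 days after the same injury with VS-4718, an inhibitor of focal adhesion kinase (FAK), given by oral gavage for 2 weeks, in 2 daily doses (50 mg/kg). Citrate buffer is the vehicle in the labels, which give no genotype beyond the strain, no age and no number of animals per library, so p-values here cover the spread among these samples, part of which may be technical. In bulk RNA, fewer cells of a type and less RNA per cell cannot be told apart.

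Before a cell copies its DNA, each replication origin is licensed: the origin recognition complex, together with the ATPase CDC6 and the loading factor CDT1, places the ring of MCM2, MCM3, MCM4, MCM5, MCM6 and MCM7 around the DNA. Geminin, the product of Gmnn, binds CDT1 and blocks a further round of licensing within the same cycle. In S phase the loaded rings are activated as helicases with the help of MCM10, and PCNA is the sliding clamp that holds DNA polymerases on the template. Most of these genes are transcribed in proliferating cells under E2F factors, and smooth muscle cells of a resting artery divide rarely.

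The libraries held between 14676405 and 21247261 reads. The contractile smooth muscle markers, all 12 of 12 found in the tables, summed to normalised read counts of 595748 to 776363 in the sham libraries, 175075 to 203680 in the injured ones and 683989 to 700986 in the inhibitor-treated ones. Libraries also differed in markers of other tissues: skeletal muscle markers summed to 587412 in injured replicate 2 and to 66489 at most in the other 8 libraries, and hepatocyte markers summed to 28354 in inhibitor-treated replicate 3 and to 210.1 at most elsewhere. In sham replicate 3 the skeletal muscle markers summed to 33419, the most of the sham libraries (5908 and 8348 in the others) but less than in inhibitor-treated replicate 2 (41306), which was kept. Where a call changes, results are also given without injured replicate 2, sham replicate 3 and inhibitor-treated replicate 3, a choice taken from earlier results of these data; they are called below the 3 libraries that stand apart.

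RefSeq promoter windows (GRCm38.p6, 250 bases before to 50 bases after a transcription start) were found for 8 of the 10 genes, with 2 starts for Mcm7. The windows were searched on both strands for the E2F words TTTCCCGC, TTTCGCGC, TTTGCCGC and TTTGGCGC, for CCAAT and for TTTGAA, the CHR word of G2 and M phase genes. An E2F word was present in 5 of the 8 genes (Mcm3, Mcm5, Mcm6, Mcm7 and Cdc6), against 2.6% of 27025 genes with a window. The word CCAAT was present in 7 of 8, against 41.1% of genes, and TTTGAA in 1, Mcm2, against 20.2%. A match is a description of these letters, not of a bound site.

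The 170 bases upstream of the RefSeq start are printed for the 4 genes with an E2F word there, because they place Mcm6, the subunit whose RNA moved opposite to the rest, beside Mcm5, Mcm7 and Cdc6. Each is written 5′ to 3′ along the transcribed strand, and capitals mark the E2F words.
Mcm5 (chr8:75109339-75109508, plus strand): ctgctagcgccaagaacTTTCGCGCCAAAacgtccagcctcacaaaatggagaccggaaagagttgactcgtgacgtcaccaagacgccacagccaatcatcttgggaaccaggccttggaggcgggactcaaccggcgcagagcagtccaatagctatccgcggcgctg
Mcm6 (chr1:128359706-128359875, minus strand): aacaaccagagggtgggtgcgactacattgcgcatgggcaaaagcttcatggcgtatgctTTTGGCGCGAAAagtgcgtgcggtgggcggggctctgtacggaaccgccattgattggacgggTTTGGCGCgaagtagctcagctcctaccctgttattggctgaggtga
Mcm7 start 1 (chr5:138171884-138172053, minus strand): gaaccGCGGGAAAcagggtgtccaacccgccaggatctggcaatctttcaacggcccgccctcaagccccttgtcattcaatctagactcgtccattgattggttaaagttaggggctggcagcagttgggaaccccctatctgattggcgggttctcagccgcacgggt
Cdc6 (chr11:98907981-98908150, plus strand): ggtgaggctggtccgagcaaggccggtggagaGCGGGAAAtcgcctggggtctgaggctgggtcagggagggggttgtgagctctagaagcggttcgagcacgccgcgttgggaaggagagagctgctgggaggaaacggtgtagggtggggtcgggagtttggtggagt

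Mcm6 held the most E2F words of the 4. It had an overlapping pair between 110 and 99 bases before the start and another word 47 to 40 bases before it. Mcm5 held a like overlapping pair, 153 to 142 bases before its start. Mcm7 and Cdc6 held 1 word each in the printed stretch, both as TTTCCCGC on the opposite strand. The printed stretches of Mcm7 and Cdc6 lie before the RefSeq start used here but inside the GENCODE M21 gene spans given below. The E2F words of Mcm3 lay after its start and are not printed.

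**Figure D1:**
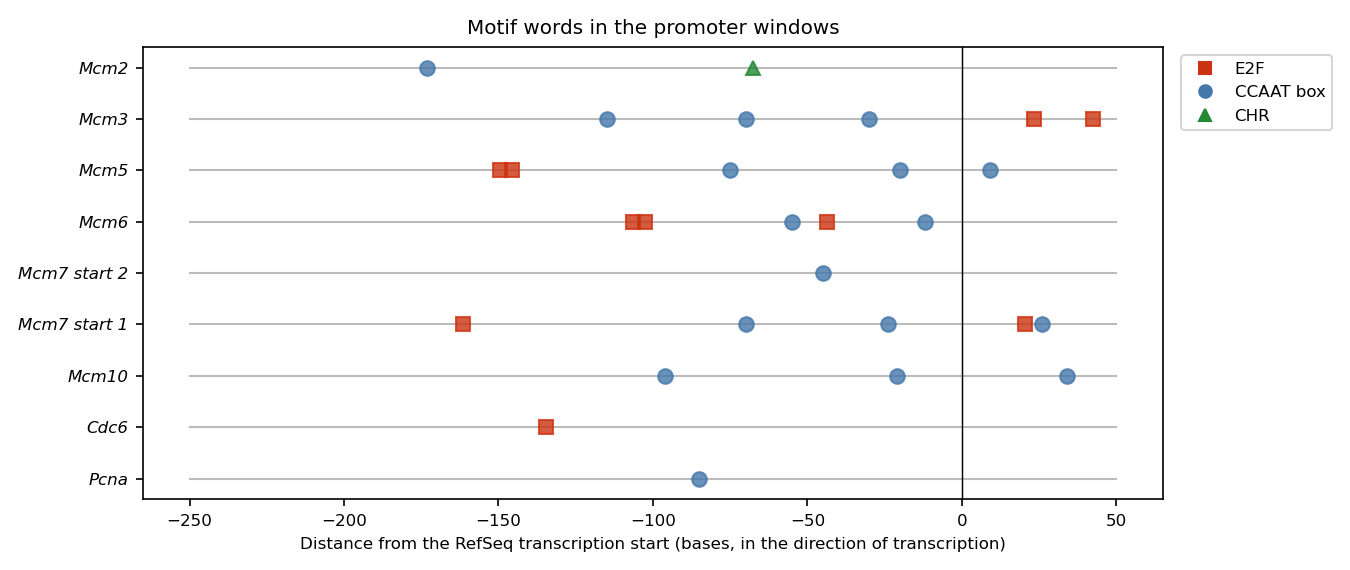
Positions of the E2F, CCAAT and CHR words in the RefSeq promoter windows of 8 genes; the horizontal axis is the distance in bases from the transcription start and each row is 1 window (2 for Mcm7). Squares mark E2F words in Mcm3, Mcm5, Mcm6, Mcm7 (start 1) and Cdc6, and the 3 squares of Mcm6 all lie before its start.

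Levels by library are given as normalised read counts on 1 scale set over all 9 libraries. Differences are log2 differences of log2(normalised count + 1) ± the standard error, fitted with limma over all genes of each comparison's own table, with Benjamini-Hochberg adjusted p-values and a threshold of 0.05. The injured libraries serve in 2 of the comparisons, and so do the sham and inhibitor-treated libraries, so the comparisons are not independent of each other.

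At day 14 after wire injury, 7 of the 10 genes were higher than in sham arteries, 1 was lower and 2 did not pass the test. Those that rose were Mcm2, Mcm3, Mcm4, Mcm5, Mcm7, Mcm10 and Gmnn, and the 1 that fell was Mcm6. Of all 16278 genes tested, 37.3% were called, 20.6% as higher and 16.8% as lower. The median log2 difference of the 10 genes was 0.77, against -0.003 over all genes. The injured and sham libraries did not overlap for 9 of the 10 genes, against 51.3% of all genes. Without the 3 libraries that stand apart, Mcm3, Mcm5 and Mcm10 were still called higher and Mcm6 lower, while Mcm4 (0.43, adjusted p = 0.156), Mcm7 (0.37, adjusted p = 0.187) and Gmnn (1.00, adjusted p = 0.0559) were not called. Scaled on ribosomal protein genes, which moved the median of all genes to -0.23, 1 gene (Mcm10) was called higher and Mcm6 lower.

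With the FAK inhibitor, 6 of the 10 genes were lower than in injured arteries without it (Mcm2, Mcm4, Mcm5, Mcm7, Mcm10 and Gmnn), 1 was higher (Mcm6) and 3 did not pass the test (Mcm3, Cdc6 and Pcna). Of all 16901 genes tested, 36.1% were called, 17.6% as higher and 18.5% as lower. The median log2 difference of the 10 genes was -0.51, against 0.006 over all genes. The libraries did not overlap for 8 of the 10 genes, against 51.6% of all genes. Without the 3 libraries that stand apart, Mcm2 and Mcm5 were still called lower, while Mcm6 (0.54, adjusted p = 0.0684), Mcm7 (-0.49, adjusted p = 0.0802) and Gmnn (-1.16, adjusted p = 0.0821) were not called. Scaled on ribosomal protein genes, which moved the median of all genes to 0.35, the same 2 genes were called lower and Mcm6 higher.

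Between inhibitor-treated and sham arteries, limma called 0 of the 10 genes, and 3 had an unadjusted p under 0.05 (Mcm2, Mcm3 and Cdc6). Of all 16166 genes tested, 6.08% were called, 5.15% as higher and 0.934% as lower. The authors' deposited table and DESeq2 on the recovered reads each called 2 of the 10 as higher, Mcm3 and Cdc6, and edgeR called 1, Mcm3. The DESeq2 values nearly equal the deposited ones (for Mcm3, adjusted p = 0.002127 with DESeq2 and 0.002126 as deposited). These 2 sources are therefore not separate support. By the authors' deposited adjusted p, 8.98% of 16057 genes were called (7.17% higher and 1.81% lower), with DESeq2 8.98% and with edgeR 6.26%. The libraries did not overlap for 4 of the 10 genes, against 27.9% of all genes.

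**Figure D2:**
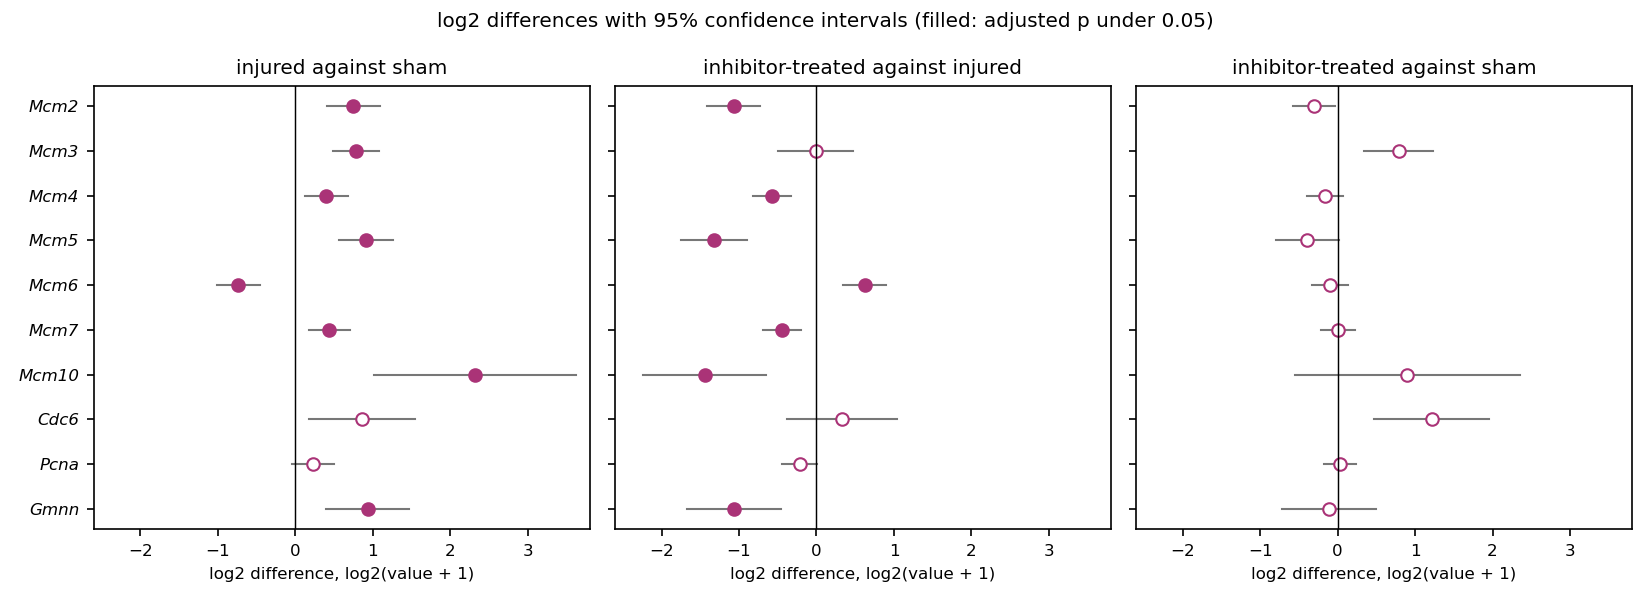
The log2 difference of each gene in the 3 comparisons, as points with 95% confidence intervals on the horizontal axis and genes on the vertical axis; filled points had an adjusted p under 0.05. Mcm6 is the only filled point left of 0 in the injured against sham panel and the only one right of 0 in the inhibitor-treated against injured panel, and no point is filled in the inhibitor-treated against sham panel.

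Among the helicase subunits, Mcm5 had the largest log2 differences of the 6 in both comparisons with injured arteries. Mcm5 (chromosome 8, 75109569 to 75128439, GRCm38, plus strand, 17 exons) encodes a subunit at the gate through which the ring opens around DNA. Its level was 118, 132 and 135 in the sham libraries, 228, 254 and 251 in the injured ones and 103, 77.1 and 115 in the inhibitor-treated ones. Every injured library was above every library of the other 2 groups, and the inhibitor-treated libraries lay below the sham ones. Mcm5 rose after injury by 0.91 ± 0.15 (adjusted p = 0.00191). It was lower with the inhibitor than in injured arteries, by a log2 difference of -1.32 ± 0.18 (adjusted p = 0.00148). Against sham the difference was -0.39 ± 0.18 and did not pass the test (adjusted p = 0.252).

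Mcm2 (chromosome 6, 88883474 to 88898780, minus strand, 16 exons) encodes the partner of MCM5 at that gate and also binds histones. Its level was 170.2, 178 and 182 in sham, 308, 332 and 263 in injured and 156, 136 and 135 in inhibitor-treated libraries. The 3 groups did not overlap, with injured highest and inhibitor-treated lowest. Mcm2 rose after injury by 0.75 ± 0.15 (adjusted p = 0.00467). It fell by 1.07 ± 0.14 on the log2 scale between injured and inhibitor-treated arteries (adjusted p = 0.00136). Against sham the difference was -0.30 ± 0.12 (unadjusted p = 0.0315, adjusted p = 0.187, limma). Without the 3 libraries that stand apart, the rise of Mcm2 after injury was 0.70 and missed the threshold (adjusted p = 0.0574).

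Mcm4 and Mcm7 encode subunits of the ring's catalytic core, together with Mcm6. The level of Mcm4 (chromosome 16, 15623897 to 15637400, minus strand, 16 exons) was 342, 302 and 336 in sham, 435, 431 and 435 in injured and 284, 276 and 311 in inhibitor-treated libraries. The injured libraries lay close together and above all others, while the other 2 groups overlapped. Mcm4 rose after injury by 0.40 ± 0.12 (adjusted p = 0.0296) and was lower with the inhibitor than in injured arteries, by -0.58 ± 0.11 (adjusted p = 0.00506). The rise of Mcm4 lost its call without any 1 of sham replicates 1, 2 and 3 or injured replicates 1 and 2, with values between 0.35 and 0.44. Its fall was -0.64 without the 3 libraries that stand apart (adjusted p = 0.0518).

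The level of Mcm7 (chromosome 5, 138164583 to 138172422, minus strand, 15 exons) was 429.6, 404 and 379 in sham, 552, 565 and 531 in injured and 381, 392 and 435 in inhibitor-treated libraries. The injured libraries stood above the others, and the sham and inhibitor-treated ranges overlapped almost entirely. Mcm7 rose after injury by 0.44 ± 0.12 (adjusted p = 0.0176) and was lower with the inhibitor than in injured arteries, by -0.45 ± 0.10 (adjusted p = 0.0133). Mcm7 overlaps Cops6 and Ap4m1 on the opposite strand. Whether the counting used strand is not given in the sources used here, so its values are uncertain to that extent. Cops6 fell by 0.36 ± 0.12 after injury (adjusted p = 0.0491), and the difference of Ap4m1 was -0.05 ± 0.16 (adjusted p = 0.845). The rise of Mcm7 missed the threshold without sham replicate 2 (0.44), sham replicate 3 (0.39) or injured replicate 2 (0.41), and its fall without inhibitor-treated replicate 1 (-0.41) or 2 (-0.43).

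Mcm6 was the subunit with the opposite direction. Mcm6 (chromosome 1, 128331590 to 128359664, minus strand, 17 exons) completes the catalytic core of the ring. Its level was 1212, 1175 and 1028 in sham, 624, 692 and 743 in injured and 993, 989 and 1194 in inhibitor-treated libraries. All 3 injured libraries were below all 6 others, and the sham and inhibitor-treated ranges overlapped. Mcm6 was lower after injury by -0.74 ± 0.12 (adjusted p = 0.00172) and higher with the inhibitor than in injured arteries by 0.63 ± 0.12 (adjusted p = 0.00581). Against sham the difference was -0.09 ± 0.10 (adjusted p = 0.636, 95% interval -0.33 to 0.14). The call after injury held in each of the 18 alternative settings run, with values from -0.97 to -0.67. The summed level of the contractile smooth muscle markers was lower in the injured libraries too. After injury 11 of 12 of these markers were called lower, beside 16.8% of all genes. With the inhibitor 11 of 12 were called higher, beside 17.6% of all genes. The part of these markers in the result for Mcm6 was not tested.

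Mcm3 rose after injury and was the only 1 of the 6 subunits not called between inhibitor-treated and injured arteries; whether its difference departs from those of the other subunits was not tested. Mcm3 (chromosome 1, 20802968 to 20820312, minus strand, 17 exons) encodes the subunit that pairs with MCM5 in the ring and contacts the loader during licensing. Its level was 248, 223 and 228 in sham, 425, 392 and 393 in injured and 480.3, 464 and 284 in inhibitor-treated libraries. Inhibitor-treated replicates 1 and 2 were above every injured library, and replicate 3 lay between the sham and injured ranges. Mcm3 rose after injury by 0.78 ± 0.13 (adjusted p = 0.00173). Its difference between inhibitor-treated and injured arteries was -0.01 ± 0.21, with a 95% interval from -0.49 to 0.47 (adjusted p = 0.972).

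Against sham, Mcm3 was 0.79 ± 0.19 in the limma fit, with no overlap of the groups and an adjusted p of 0.0532. The authors' deposited table gave Mcm3 a log2 fold change of 0.82 with an adjusted p of 0.00213. Without inhibitor-treated replicate 3 the limma value of Mcm3 was 1.03 (adjusted p = 0.00358). That replicate was the library with hepatocyte markers summing to 28354, and the part of these markers in its Mcm3 level was not tested.

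**Figure D3:**
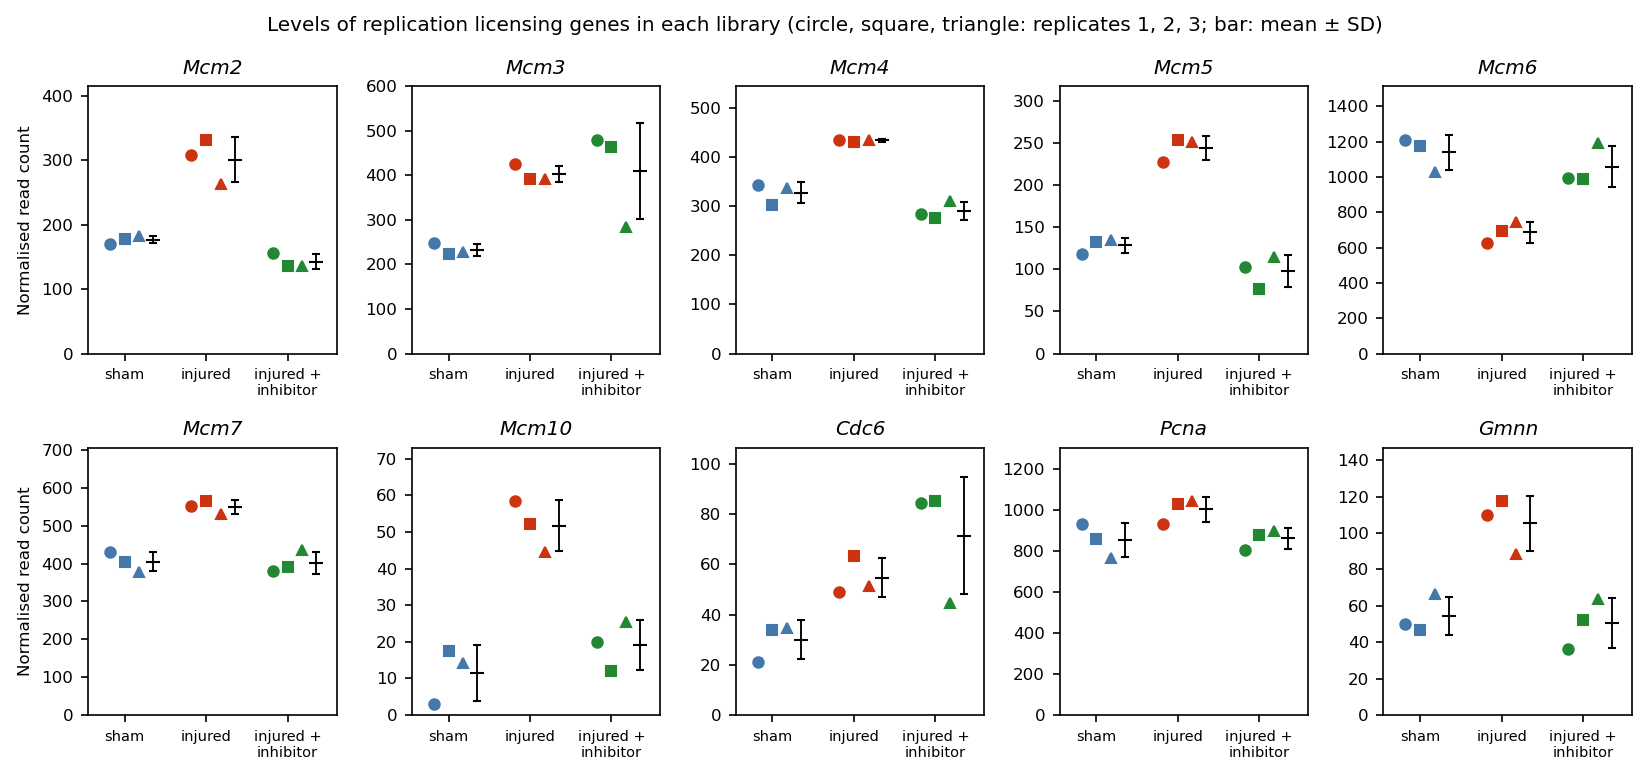
Normalised read count (vertical axes, from 0, 1 panel per gene) of the 10 genes in the 3 sham, 3 injured and 3 inhibitor-treated libraries, with circles, squares and triangles for replicates 1, 2 and 3 and a bar for the mean ± SD. The injured libraries are highest for Mcm2, Mcm4, Mcm5, Mcm7, Mcm10 and Gmnn and lowest for Mcm6, and inhibitor-treated replicates 1 and 2 are highest for Mcm3 and Cdc6.

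To compare subunits with each other, levels were divided by transcript length (the GENCODE M21 transcript in GRCm38), giving normalised counts per kb. Mcm6 was the most abundant of the 6 subunits and Mcm5 the least abundant in all 9 libraries on this scale. The levels per kb of Mcm6 were 391 ± 33.4 in sham, 236 ± 20.5 in injured and 364 ± 40.3 in inhibitor-treated libraries (SD, n = 3). Those of Mcm5 were 38.0 ± 2.69 in sham, 72.2 ± 4.23 in injured and 29.0 ± 5.66 in inhibitor-treated libraries (SD, n = 3).

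The subunits were closer to equal in injured arteries than in the others. Mcm6 made up 49.7% ± 1.94 of the sum of the 6 subunits in sham, 28.2% ± 2.20 in injured and 46.2% ± 3.82 in inhibitor-treated arteries (SD, n = 3). The ratio of the highest subunit to the lowest was 10.4 ± 1.54 in sham, 3.26 ± 0.155 in injured and 12.8 ± 1.91 in inhibitor-treated libraries (SD, n = 3). Both quantities put all 3 injured libraries below all 6 others. No test is given for these quantities, because they combine genes chosen with earlier results known.

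The summed level of the 6 subunits differed less between the groups than its parts did. The sum was 786 ± 40.3 per kb in sham, 837 ± 15.2 in injured and 787 ± 23.5 in inhibitor-treated libraries (SD, n = 3), and the ranges of the sham and injured groups overlapped. The sum of the 5 subunits other than Mcm6 was 395 ± 11.4 in sham, 601 ± 16.5 in injured and 423 ± 20.6 in inhibitor-treated libraries. The order of the other subunits was Mcm7, Mcm4, Mcm3 and Mcm2 in the 3 sham libraries, and Mcm3 stood ahead of Mcm4 in the other 6. In inhibitor-treated replicates 1 and 2, Mcm3 also stood ahead of Mcm7.

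The ratio of Mcm3 to Mcm5 per kb was 2.03 ± 0.269 in sham, 1.85 ± 0.201 in injured and 4.91 ± 1.99 in inhibitor-treated libraries (SD, n = 3). The lowest inhibitor-treated value, 2.77, was above the highest of the other 6 libraries, 2.34. Divided by coding length instead, a choice made after seeing the data, the share of Mcm6 was 44.2% to 47.8% in sham, 23.7% to 27.7% in injured and 40.7% to 47.3% in inhibitor-treated libraries. On that scale Mcm7 was the highest subunit in injured replicate 1, and Mcm2 the lowest in injured replicate 3 and inhibitor-treated replicate 3.

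**Figure D4:**
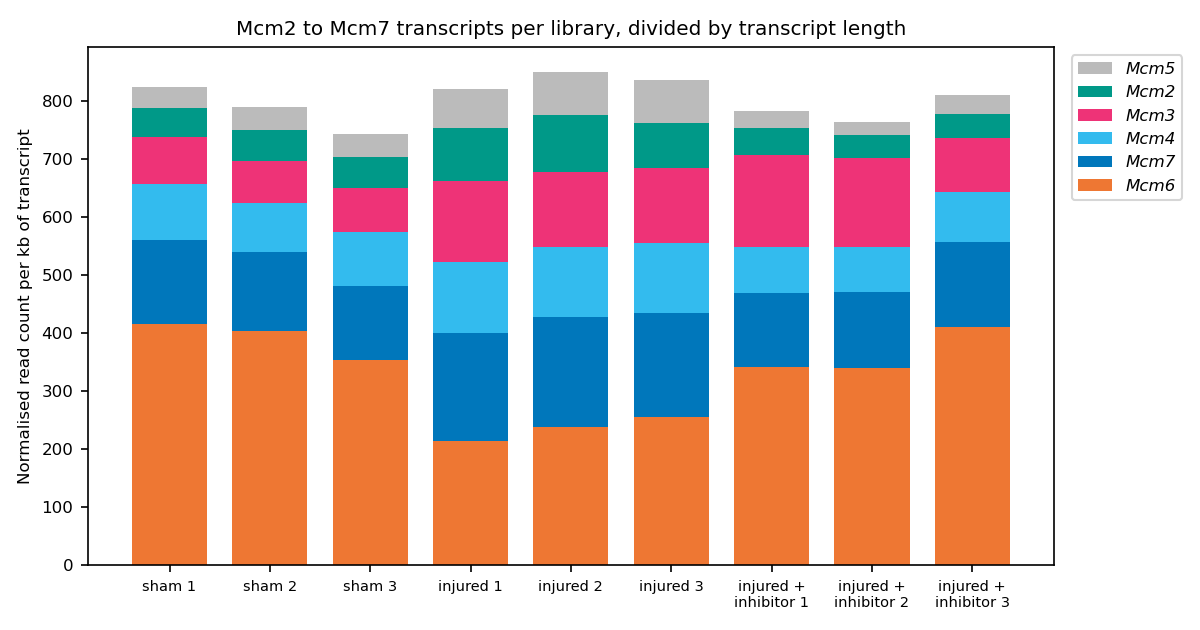
Stacked bars of the 6 helicase subunits in each of the 9 libraries, in normalised read count per kb of transcript on the vertical axis. The Mcm6 segment makes up 47.5% to 51.1% of the bar in sham, 26.1% to 30.5% in injured and 43.5% to 50.5% in inhibitor-treated libraries.

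Of the loading factors, Cdc6 (chromosome 11, 98907801 to 98923940, plus strand, 12 exons) was, like Mcm3, highest in inhibitor-treated replicates 1 and 2. Its level was 21.0, 34.0 and 34.8 in sham, 48.9, 63.5 and 51.5 in injured and 84.5, 85.3 and 44.5 in inhibitor-treated libraries. The injured libraries were above the sham ones, and inhibitor-treated replicates 1 and 2 were above all others while replicate 3 was below the injured range. The difference of Cdc6 after injury was 0.86 ± 0.30 (adjusted p = 0.0505), just outside the threshold. It depended on the setting. With limma it was 0.25 after quantile normalisation (adjusted p = 0.508), 0.64 under ribosomal scaling (adjusted p = 0.210) and 0.64 without sham replicate 1 (adjusted p = 0.159). It was called with a pseudocount of 10 (0.70, adjusted p = 0.0434) and in the fit of all 9 libraries (0.87, adjusted p = 0.0459). With the inhibitor it was 0.33 ± 0.30 against injured, with a 95% interval from -0.38 to 1.04 (adjusted p = 0.418), and 1.21 ± 0.32 against sham (adjusted p = 0.0721).

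The authors' deposited table gave Cdc6 a log2 fold change of 1.27 against sham with an adjusted p of 0.0187. Without inhibitor-treated replicate 3 the limma value of Cdc6 was 1.52 (adjusted p = 0.0395). Cdc6 was counted at 21 to 93 reads per library, so its values rest on few reads.

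Erythroid markers other than globins were high in the inhibitor-treated libraries, in which Mcm3 and Cdc6 passed no test against injured arteries. The 10 of 12 erythroid markers in the tables summed to 40122, 91579 and 50687 in inhibitor-treated replicates 1, 2 and 3 and to between 355 and 788 in the other 6 libraries. All 10 were called higher than in injured arteries and 9 of 10 higher than in sham, beside 17.6% and 5.15% of all genes. Gata1 was at 0 in every sham library, and Ahsp and Klf1 are not in the tables used here. The part of these markers in the levels of Mcm3 and Cdc6 was not tested.

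Geminin and MCM10 were the remaining licensing and activation factors, and both rose after injury and were lower with the inhibitor. The level of Gmnn (chromosome 13, 24751845 to 24761923, minus strand, 7 exons) was 50.1, 46.9 and 66.4 in sham, 109.8, 118 and 88.5 in injured and 36.1, 52.3 and 63.6 in inhibitor-treated libraries. The injured libraries were above all others, and the other 2 groups overlapped. Gmnn rose after injury by 0.94 ± 0.23 (adjusted p = 0.0139) and was lower with the inhibitor than in injured arteries, by -1.06 ± 0.26 (adjusted p = 0.0170). The rise of Gmnn missed the threshold without sham replicate 1 (0.89), sham replicate 2 (0.84) or injured replicate 2 (0.85), and its fall without injured replicate 2 (-0.98) or inhibitor-treated replicate 1 (-0.84).

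Mcm10 (chromosome 2, 4989714 to 5012791, minus strand, 20 exons) had the largest log2 difference of the 10 after injury and the fewest reads. It was counted at 3, 15 and 13 reads in sham, 49, 55 and 52 in injured and 21, 13 and 28 in inhibitor-treated libraries. Its level was 3.00, 17.6 and 14.2 in sham, 58.5, 52.2 and 44.7 in injured and 19.9, 11.9 and 25.4 in inhibitor-treated libraries. The injured libraries stood above all others, and the other 2 groups overlapped. Mcm10 rose after injury by 2.32 ± 0.57 (adjusted p = 0.0127) and was lower with the inhibitor than in injured arteries, by -1.44 ± 0.34 (adjusted p = 0.0147). Without sham replicate 1, the library with 3 reads, the rise of Mcm10 was 1.64 (adjusted p = 0.0119), and with a pseudocount of 10 it was 1.56 (adjusted p = 0.00461). The fall of Mcm10 missed the threshold without the 3 libraries that stand apart (-1.67, adjusted p = 0.0597) and in the fit of all 9 libraries (-1.44, adjusted p = 0.0572).

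Pcna passed the test in none of the comparisons. The level of Pcna (chromosome 2, 132249162 to 132253314, minus strand, 6 exons) was 932, 857 and 766 in sham, 933, 1029.8 and 1044 in injured and 805, 879.7 and 898 in inhibitor-treated libraries. On this common scale the lowest injured library lay just above the highest sham one, and in the table of that comparison the groups overlapped. The difference of Pcna was 0.23 ± 0.12 after injury (adjusted p = 0.158, 95% interval -0.04 to 0.50), -0.22 ± 0.10 between inhibitor-treated and injured arteries (adjusted p = 0.119, 95% interval -0.44 to 0.01) and 0.03 ± 0.09 against sham (adjusted p = 0.882). Pcna has processed pseudogenes, Pcna-ps1 and Pcna-ps2, that are not in the tables used here, so reads shared with them could not be told apart.

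Macrophage markers moved in the direction of Mcm2, Mcm4, Mcm5, Mcm7, Mcm10 and Gmnn in both comparisons with injured arteries, and opposite to Mcm6. All 12 of 12 rose after injury and all 12 were lower with the inhibitor than in injured arteries, with sums of 3555 to 4818 in sham, 31879 to 48493 in injured and 5272 to 9410 in inhibitor-treated libraries. Endothelial markers rose in 9 of 12 after injury and were lower in 9 of 12 with the inhibitor, and fibroblast markers rose in 6 of 10 (1 fell) and were lower in 9 of 10 (1 was higher). Neutrophil markers rose in 7 of 7 and lymphocyte markers in 9 of 10 tested after injury. With the inhibitor, neutrophil markers were called lower than in injured arteries for 1 of 7 and higher for 2. Lymphocyte markers were called lower for 3 of 12 and higher for 2. Of all genes, 20.6% were higher and 16.8% lower after injury, and 17.6% higher and 18.5% lower with the inhibitor. The 14.3% of neutrophil and 25.0% of lymphocyte markers called lower are near that last share. The part of these marker lists in the licensing gene results was not tested.

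Of 12 further licensing genes (the origin recognition complex, Cdt1 and associated factors), 2 rose after injury and 1 fell, with a median log2 difference of -0.07. The 25.0% called is below the 37.3% of all genes, and the 16.7% higher is near the 20.6% of all genes. Cdt1, the loading factor that geminin binds, rose from 40.3 ± 6.34 to 108 ± 23.7 normalised counts (SD, n = 3, on the scale of that table), a log2 difference of 1.38 ± 0.25 (adjusted p = 0.00322). Hells, a chromatin remodelling helicase, rose by 1.49 ± 0.21 (adjusted p = 0.000906). Orc4, a subunit of the origin recognition complex, fell by 0.46 ± 0.14 (adjusted p = 0.0340), a call lost on leaving out any 1 of sham replicates 1, 2 and 3 or injured replicates 1 and 2. With the inhibitor, Cdt1 was lower than in injured arteries by -1.41 ± 0.27 (adjusted p = 0.00651), Hells by -0.70 ± 0.18 (adjusted p = 0.0201), and Orc4 higher by 0.60 ± 0.13 (adjusted p = 0.0111). The fall of Hells lost its call without injured replicate 2 or any 1 of the inhibitor-treated libraries. Hells was also higher than in sham, by 0.81 ± 0.17 (adjusted p = 0.0331), the only 1 of the 12 called in that comparison and not called when any 1 library was left out.

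Downstream of licensing, 7 of 16 origin firing and fork genes rose after injury and none fell, and 8 of 16 were lower with the inhibitor than in injured arteries, beside 20.6% of all genes higher and 18.5% lower in those comparisons. These counts were both 3 without the 3 libraries that stand apart. Dbf4, the activating subunit of the CDC7 kinase that phosphorylates loaded MCM rings, rose by 1.97 ± 0.22 (adjusted p = 0.000245) and was lower with the inhibitor by -1.77 ± 0.21 (adjusted p = 0.000772). Timeless, a fork protection factor, was lower with the inhibitor than in injured arteries by -1.69 ± 0.18 (adjusted p = 0.000467). Ticrr, which helps load CDC45 onto MCM rings, rose by 2.64 ± 0.60 after injury (adjusted p = 0.00931). With the inhibitor it was higher than in sham by 2.72 ± 0.65 (adjusted p = 0.0498). That call was kept on leaving out inhibitor-treated replicate 3 and lost on leaving out any 1 of the other 5 libraries. It was also lost with a pseudocount of 10, after quantile normalisation and with the replicate number as a block. The levels of Ticrr in sham were only 1.17 to 7.01, so its log2 differences depend on the added 1.

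Around the clamp, 5 of 12 genes of clamp unloading and PCNA-linked destruction rose after injury and 4 of 12 were lower with the inhibitor, while Pcna itself passed no test. These counts were 3 and 2 without the 3 libraries that stand apart. After injury 41.7% were higher, beside 20.6% of all genes. With the inhibitor 33.3% were lower, beside 18.5% of all genes, and the 33.3% called in either direction is below the 36.1% of all genes. Pclaf, a PCNA-binding factor, rose by 3.16 ± 0.39 (adjusted p = 0.000436) and was lower with the inhibitor by -2.75 ± 0.26 (adjusted p = 0.000314). Dtl, the receptor of the ubiquitin ligase that destroys CDT1 on PCNA, rose by 2.42 ± 0.27 (adjusted p = 0.000238) and was lower by -1.76 ± 0.28 (adjusted p = 0.00293). Rad18, a ubiquitin ligase for PCNA, was higher with the inhibitor than in sham by 1.41 ± 0.19 (adjusted p = 0.00457).

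Among 28 polymerase, clamp loader and Okazaki fragment genes, 8 rose and 3 fell after injury, and 2 were higher and 10 lower with the inhibitor than in injured arteries. After injury 28.6% were higher and 10.7% lower, against 20.6% and 16.8% of all genes. The 39.3% called is near the 37.3% of all genes. With the inhibitor 7.14% were higher and 35.7% lower, against 17.6% and 18.5% of all genes. Without the 3 libraries that stand apart, 5 rose and 1 fell after injury, and 1 was higher and 1 lower with the inhibitor. The 3 that fell, as Mcm6 did, were Prim1, a primase subunit (-0.69 ± 0.19, adjusted p = 0.0229), Pold2, a polymerase delta subunit (-0.66 ± 0.15, adjusted p = 0.00776), and Rnaseh2c, a ribonuclease H2 subunit (-0.54 ± 0.13, adjusted p = 0.00991). Of 10 nucleotide supply genes, 5 rose and 1, Rrm2b, fell after injury, and 5 were lower and Rrm2b higher with the inhibitor. These are 50.0% higher and 10.0% lower after injury, beside 20.6% and 16.8% of all genes. With the inhibitor they are 10.0% higher and 50.0% lower, beside 17.6% and 18.5% of all genes. Without the 3 libraries that stand apart, 3 of these nucleotide genes rose, 0 were lower with the inhibitor, and Rrm2b lost both of its calls. The fall of Rrm2b was also lost under ribosomal scaling and without sham replicate 1 or 3 or injured replicate 1 or 2. Its rise with the inhibitor was also lost without injured replicate 2 or any 1 of the inhibitor-treated libraries. Rrm2, the S phase subunit of ribonucleotide reductase, rose by 1.92 ± 0.21 (adjusted p = 0.000248) and was lower with the inhibitor by -1.23 ± 0.26 (adjusted p = 0.0101).

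E2F and mitotic genes were set beside the licensing genes. Of 16 E2F and pocket protein genes, 8 rose and 2 fell after injury, 4 were higher and 6 lower with the inhibitor than in injured arteries, and 4 were higher than in sham (E2f2, Tfdp2, Rb1 and Lin54). After injury 50.0% were higher and 12.5% lower, against 20.6% and 16.8% of all genes. With the inhibitor 25.0% were higher and 37.5% lower than in injured arteries, against 17.6% and 18.5% of all genes. The 25.0% higher than in sham compares with 5.15% of all genes. E2f8, a repressor of the family, rose by 2.76 ± 0.33 (adjusted p = 0.000353) and was lower with the inhibitor by -2.06 ± 0.31 (adjusted p = 0.00213). E2f2, an activator, rose by 2.70 ± 0.32 (adjusted p = 0.000367) and was higher still with the inhibitor, by 2.01 ± 0.32 (adjusted p = 0.00290). Of 20 mitotic genes, 19 rose after injury, 13 were lower and 2 higher (Nusap1 and Bub1b) with the inhibitor than in injured arteries, and 7 were higher than in sham. Leaving out 1 library gave 4 to 11 mitotic genes higher than in sham (4 without sham replicate 1 and 11 without inhibitor-treated replicate 3). In the inhibitor-treated libraries, where E2f2, Tfdp2, Rb1, Lin54, Nusap1 and Bub1b were higher, the erythroid markers summed to 40122 to 91579 against 355 to 788 in the other 6 libraries, and their part in these results was not tested. The median log2 difference after injury was 2.65 for the mitotic list and 0.77 for the 10 licensing genes.

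**Figure D5:**
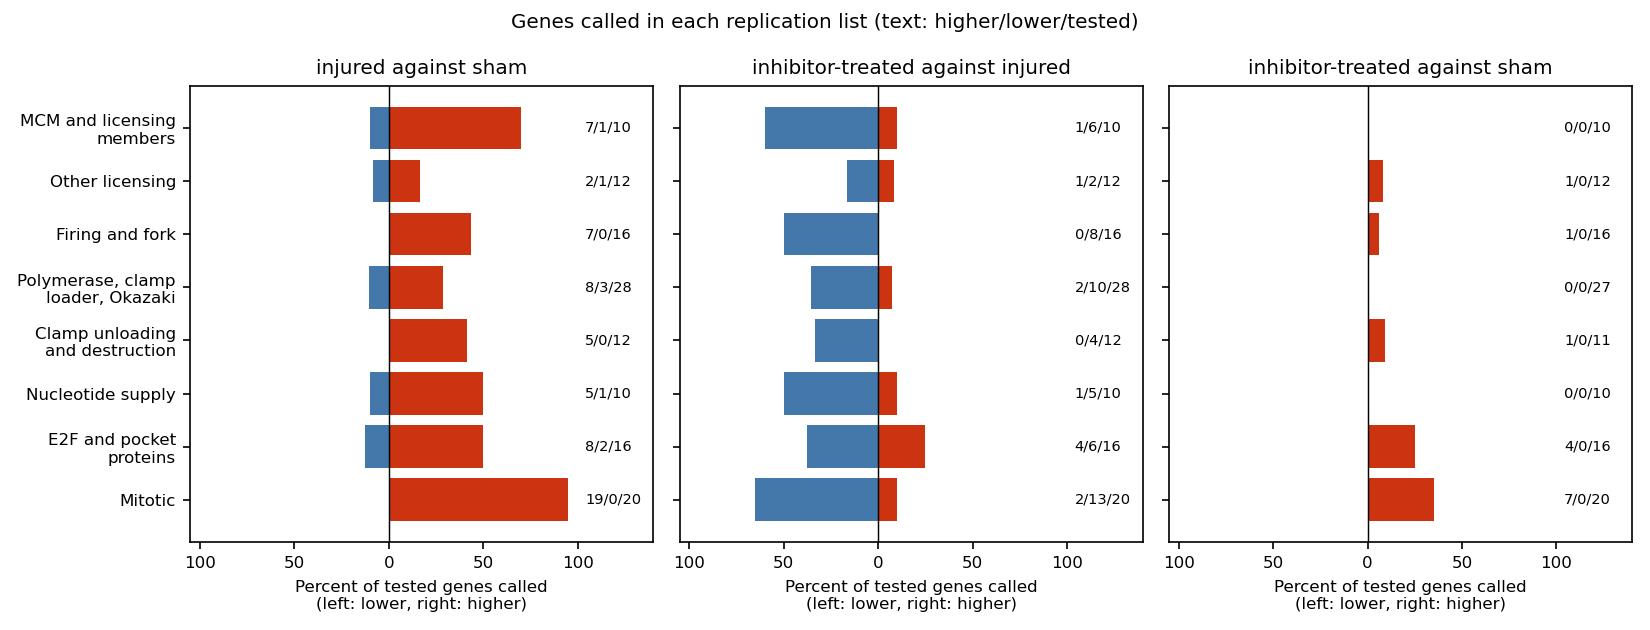
Percent of the tested genes of each replication list called higher (right of 0) or lower (left of 0) in the 3 comparisons, with the counts higher/lower/tested printed at the right of each bar. The 10 MCM and licensing genes read 7/1/10, 1/6/10 and 0/0/10, and the mitotic genes 19/0/20, 2/13/20 and 7/0/20.

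The genes with the pattern most like the MCM subunits were ranked among 11636 genes with a mean level of at least 100 by Pearson's r over the 9 libraries, which fall into 3 groups, so that r mostly reflects the group differences. To the mean of Mcm2, Mcm3, Mcm4, Mcm5 and Mcm7 the nearest were Cbfb (r = 0.994), Dera (0.994), Nek6 (0.993), Arap1 (0.991) and Plau (0.990). Within that mean, Mcm3 stood apart, with r of 0.24 to Mcm2, 0.14 to Mcm4, 0.11 to Mcm5 and 0.33 to Mcm7. To Mcm6 the nearest were Ccdc69 (r = 0.990), Sspn (0.987), Zfp94 (0.987), Natd1 (0.986) and Adk (0.985). Adk, which encodes adenosine kinase, was at 1157 ± 56.5 in sham, 652 ± 43.0 in injured and 1000.2 ± 81.9 in inhibitor-treated libraries (SD, n = 3).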

How the data were processed

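Each of 3 deposited tables holds 6 libraries of 1 pair of groups. Per the file headers, the library columns are normalised read counts, a signal for which the authors scaled the counts with 1 factor per library and table, as the values show; the authors' deposited log2 fold change and p-value columns were used only where named as theirs. Per the submitters' processing notes the build was mm10 (GRCm38); aligner, counter, strand setting and the authors' statistical method: not given in the sources used here. The design assumed counts or normalised values; as the values were normalised, limma was the main test. Dividing by the value of 1 read gave whole reads for 100% of values in all 18 columns, within 0.01 of a read. A library gave the same reads in both of its tables.

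Levels set across groups were rescaled from these reads by a median of ratios over 9 libraries and 16750 genes, because the tables were scaled separately. Tests ran within a table on log2(normalised count + 1) with limma 3.58.1 in R 4.3.3, trended variance, group as the only term, two-sided, for genes with a mean of at least 10, adjusted by Benjamini-Hochberg. The added 1 and the averaging of logs move the differences of low genes from the ratio of their means: Mcm10 after injury was 2.32 with limma, 2.17 with DESeq2 and 2.16 with edgeR. On recovered reads, edgeR 4.0.16 called 6033, 6108 and 997 genes (injured against sham, inhibitor-treated against injured, inhibitor-treated against sham). In that order DESeq2 1.42.0 called 6428, 6768 and 1442, and limma called 6076, 6099 and 983. By the authors' deposited adjusted p the counts were 6425, 6768 and 1442, nearly the same as with DESeq2. The fit was also run on simulated counts with the same dispersion for all genes and no libraries that stand apart. That run does not show how the fit behaves on the libraries used here. Replicates correlated at 0.955 to 0.987 and differed by more than sampling noise (chi-square per degree of freedom 10.9 or more).

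All 10 genes are named in each comparison. Of each other replication list, the named genes are the 2 called genes with the largest rise and fall and all called in a direction with 5 or fewer, from which a few are printed. The genes and lists were chosen with earlier results of these data known. Gene coordinates come from GENCODE M21 and promoters from RefSeq GRCm38.p6. Alternatives were other scalings, pseudocount 10, no filter and a mean of at least 50, a replicate block, 1 fit of all libraries, each library left out in turn, the 3 libraries that stand apart left out, the authors' values, edgeR and DESeq2.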

Additional observations from a re-analysis of the deposited data

How the results depend on the processing

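No result for the 10 genes changed sign while called. Over 536 combinations of a gene's comparison and an alternative setting, 484 stayed on the same side of the threshold, 38 lost a call and 14 gained one. The authors' values and DESeq2 are both among these settings and nearly repeat each other. Genes higher after injury numbered 7, against 1 (Mcm10) under scaling on 76 ribosomal protein genes, 3 without the 3 libraries that stand apart, and 4 to 7 with 1 library left out (4 without sham replicate 2 and 4 without injured replicate 2). Genes lower with the inhibitor than in injured arteries numbered 6, against 2 (Mcm2 and Mcm5) under ribosomal scaling, 2 (the same genes) without the libraries that stand apart and 4 to 6 with 1 left out; Mcm6, the 1 higher, became 0 without the libraries that stand apart. Against sham, the 0 genes higher became 2 under ribosomal scaling, in the authors' deposited table and with DESeq2, 1 with edgeR, with all 9 libraries in 1 fit and without the libraries that stand apart, and 0 to 2 with 1 library left out (2 without inhibitor-treated replicate 3). Ribosomal scaling moved the median of all genes to -0.23, 0.35 and 0.13 in the order injured against sham, inhibitor-treated against injured and inhibitor-treated against sham, and differences there are to be read relative to it. Of all genes called after injury 55.1% were higher, against 46.5% under ribosomal scaling and 45.9% after quantile normalisation. The share was 48.8% against 69.5% under ribosomal scaling for inhibitor-treated against injured, and 84.6% against 97.9% (ribosomal) and 73.7% (quantile) for inhibitor-treated against sham. All genes called fell from 6099 to 3069 without the libraries that stand apart (inhibitor-treated against injured). Against sham, 983 became 1490 under ribosomal scaling, 583 in 1 fit of all libraries and 518 to 822 with 1 library left out. Counts in the other replication lists stayed within 1.5 times in 640 of 756 cases and moved further in 116, of which 53 left out 1 library, 20 left out the libraries that stand apart and 16 used ribosomal scaling. In the order firing, synthesis, clamp, nucleotide and E2F, genes higher after injury were 7, 8, 5, 5 and 8, against 4, 2, 3, 3 and 5 under ribosomal scaling. Genes lower with the inhibitor than in injured arteries were 8, 10, 4, 5 and 6, against 5, 1, 2, 2 and 3 under ribosomal scaling and 3, 1, 2, 0 and 2 without the libraries that stand apart. With 1 library left out, the first set ranged over 5 to 7, 5 to 9, 3 to 6, 3 to 6 and 7 to 9, and the second over 5 to 8, 7 to 12, 3 to 5, 5 to 7 and 4 to 7. Mitotic genes were 19 higher after injury (17 to 19 over all settings) and 13 lower with the inhibitor (7 without the libraries that stand apart). The cause of these changes was not tested. Mcm10 was not tested at a mean of at least 50, nor Cdc6 after injury.

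No pairing of the libraries by replicate number was evident. Deviations of same-numbered libraries from their group means correlated at -0.07 to 0.21, and a library correlated best with its own number in 7 of 18 cases. With 3 libraries per group, a weak pairing might not be seen. With the replicate number as a block, the genes higher against sham were 1 (Mcm3, adjusted p = 0.0491, limma), and Mcm4 after injury had an adjusted p of 0.0639. Of the calls made in the other replication lists, the block ended, among the genes named there, those of Orc4 after injury, Dscc1 and Pold2 between inhibitor-treated and injured arteries, and Hells and Ticrr against sham.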

Other observations

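The genes next to the 10 licensing genes on the chromosome were also read. Of 25 nearest or overlapping genes, 18 were tested: 3 were higher and 6 lower after injury, and 2 were higher and 2 lower with the inhibitor than in injured arteries. Of all genes, 20.6% were higher and 16.8% lower after injury, and 17.6% higher and 18.5% lower with the inhibitor. Prkdc, the DNA-dependent protein kinase gene that lies 465 bases from Mcm4 and is transcribed away from it, had a log2 difference of -0.44 ± 0.24 after injury (limma, adjusted p = 0.179) and 0.55 ± 0.24 between inhibitor-treated and injured arteries (adjusted p = 0.108), where Mcm4 had 0.40 and -0.58. Hmox1, the heme oxygenase gene 8979 bases before Mcm5, rose by 2.70 ± 0.27 after injury (adjusted p = 0.000156) and was lower with the inhibitor by -2.19 ± 0.39 (adjusted p = 0.00451). Dars, 4042 bases from Mcm6, passed the test in none of the comparisons (-0.30 ± 0.14 after injury, adjusted p = 0.121). Optn, 7850 bases from Mcm10, fell by 0.51 ± 0.13 after injury (adjusted p = 0.0136) and was higher with the inhibitor by 0.77 ± 0.12 (adjusted p = 0.00248). Cds2, 9833 bases from Pcna, fell by 1.20 ± 0.11 after injury (adjusted p = 8.75e-05) and was higher with the inhibitor by 1.17 ± 0.09 (adjusted p = 0.000151).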
